A study of Homo sapiens with 24 samples.

Results

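The angiogenic factors VEGFA and APLN and 8 related genes were followed in MIA PaCa-2 cells, a human pancreatic carcinoma line, with and without an inducible C/EBPδ, a transcription factor of the CCAAT/enhancer-binding protein family. The genes were taken by symbol from the deposited count table, in which 10 of 60675 rows are VEGFA, VEGFB, VEGFC, PGF, APLN, ANGPTL4, NRP1, NRP2, PLXND1 and SEMA3C. They were chosen by values of these same data. VEGFA was brought to notice by its rise in CTRL cells between 0 h and 24 h, and APLN by the different response of the lines at 24 h, and the other 8 were listed beside them as relatives. For that reason the 0 h and 24 h levels, and every contrast between them, are described without a test, while the 8 h and 48 h libraries carry the tests. Comparisons of 8 h or 48 h with 0 h share the 0 h libraries with the contrasts that drew attention to VEGFA and APLN.

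The C/EBPδ-inducible cells carry a doxycycline-responsive Tet-On construct with the CEBPD cDNA and the fluorophore mVenus, and were a pool of 3 clones. The CTRL cells carry the construct without CEBPD cDNA and the fluorophore mCherry. Both lines were sampled at 0, 8, 24 and 48 h with 3 libraries per line and time, 24 in all, and the labels list 2 µg/mL doxycycline for every library, the 0 h ones included, whereas the methods of the study describe cells without doxycycline as untreated. The wells were seeded in parallel, so p-values measure the spread between wells. A difference between the lines cannot be told apart from a difference between the clone pool, the fluorophores or the constructs, and within a line the time in culture and the time with doxycycline cannot be told apart. In these bulk libraries, fewer cells with a transcript and less of it per cell cannot be told apart either.

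Vascular endothelial growth factors (VEGFs) are secreted proteins through which tissues, and tumors among them, call in blood and lymph vessels. VEGFA acts on endothelial cells through the receptors FLT1 and KDR, VEGFB and PGF bind FLT1, VEGFC acts mainly on lymphatic vessels through FLT4, and the neuropilins NRP1 and NRP2 are co-receptors shared by VEGFs and class 3 semaphorins. SEMA3C is such a semaphorin, PLXND1 is a plexin that carries semaphorin signals into the cell, APLN encodes the peptide apelin that acts through APLNR, and ANGPTL4 is a secreted inhibitor of lipoprotein lipase. VEGFA and ANGPTL4 are known targets of hypoxia-inducible factors (HIFs), which are stabilized when oxygen falls, as it does in the poorly perfused tissue of pancreatic tumors.

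Library totals ran from 12731237 to 22598595 counts, with a median of 18959363.5. CEBPD lay between 1.33 and 4.42 CPM (counts scaled to library size) in the 12 CTRL libraries. Among those of the C/EBPδ-inducible cells it ran from 18.9 to 23.3 CPM at 0 h, from 236 to 266 at 8 h, from 301 to 320.2 at 24 h and from 199 to 212 at 48 h. It was thus already higher than in CTRL cells at 0 h (log2 2.44), which the study puts down to a probable leak of the construct without doxycycline. Differences between the lines at 0 h are therefore not free of added CEBPD transcript. The 8 h libraries were the least uniform. By the chi-square per gene between libraries of a group, which ran from 1.66 to 16.7, CTRL replicates 1 and 3 at 8 h stood at 16.7, and replicate 3 of the C/EBPδ-inducible cells at 8 h, the shallowest library, stood at 12.3 and 12.5 from the other two. Beside every comparison of the lines stands a difference in line identity: the epithelial keratin KRT8 was already at 1561 ± 55.2 CPM in CTRL and at 74.1 ± 2.18 CPM in C/EBPδ-inducible cells at 0 h (SD, n = 3 each). KRT18 and KRT19 were lower in C/EBPδ-inducible cells as well at 8 h and 48 h, and EPCAM was a DEG at neither time. The cadherin gene CDH1, with 0 to 85 counts per library, was higher at 8 h (log2 2.76, edgeR adjusted p = 0.000166) and 48 h (log2 1.88, edgeR adjusted p = 0.00526), having read a log2 of −3.04 at 0 h. From 0 h to 8 h it rose by 5.19 in C/EBPδ-inducible cells (edgeR adjusted p = 9.99e-10) and was no DEG in CTRL cells. In the inducible cells CDH1 passed the filter there through the 8 h libraries, so only a rise could be called. The sign of the difference between the lines changed after 0 h, so CDH1 is not a marker of line identity alone. The study reports it as induced by C/EBPδ. KRT8 was not fixed over time either. Its log2 change from 0 h to 48 h was −1.02 in C/EBPδ-inducible cells and −0.57 in CTRL cells. This change differed between the lines (log2 −0.46, edgeR adjusted p = 1.95e-05), while KRT18 and KRT19 were no DEGs in that contrast. VIM was between 5372 and 7024 CPM in all libraries, and CDKN2A, deleted in MIA PaCa-2 cells, had 0 to 17 counts. The part of these differences in the results below was not tested.

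The 10 genes covered a wide range of levels. Per length of transcript, as CPM per kilobase (RPKM, mean of 24 libraries), SEMA3C was highest at 80.2, followed by VEGFA at 41.5 and PLXND1 at 15.6, and this order of SEMA3C over VEGFA over PLXND1 over VEGFB held in 24 of 24 libraries. VEGFB (4.01), NRP1 (2.63) and ANGPTL4 (2.59) followed and were not in a fixed order, with VEGFB above NRP1 in 16 of 24 libraries and NRP1 above ANGPTL4 in 10 of 24. PGF (0.972), APLN (0.506), VEGFC (0.219) and NRP2 (0.0455) were low, and 4 of the 10 genes, PGF, APLN, VEGFC and NRP2, rest on fewer than 100 counts in every library. The plot of levels by library shows the pattern of each gene over time.

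**Figure D1:**
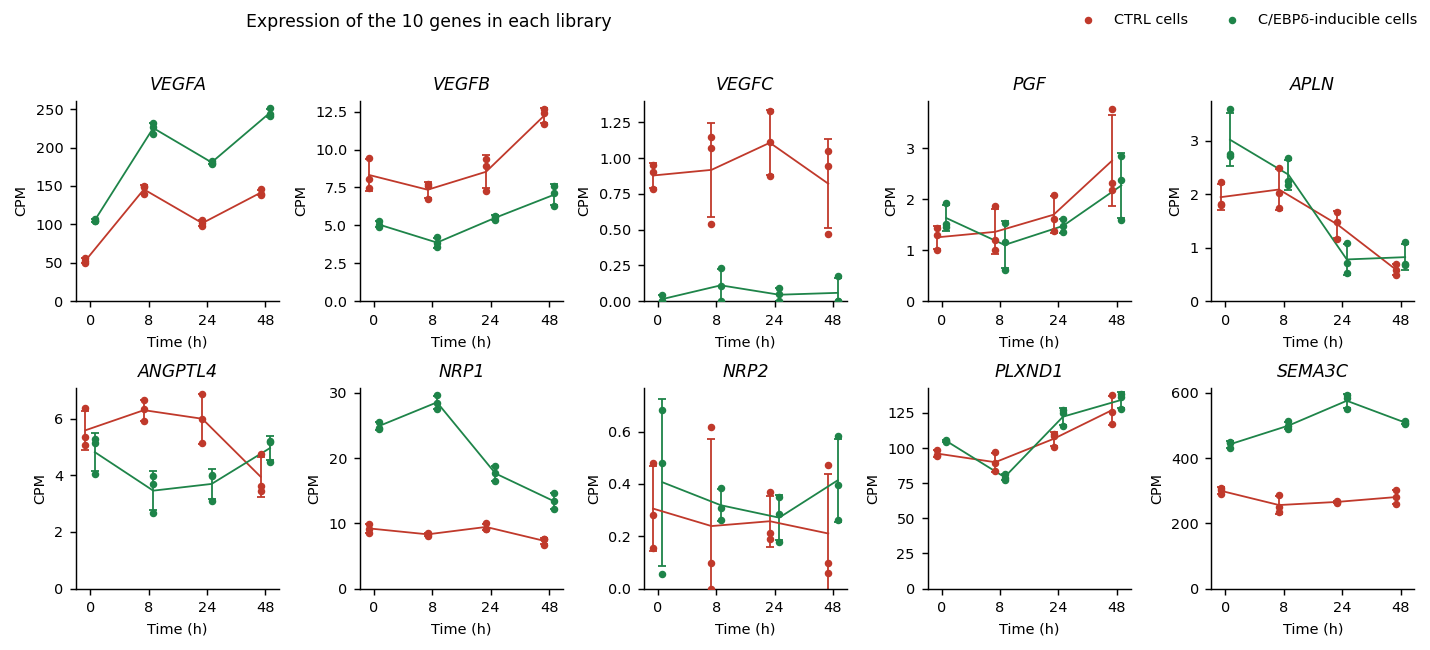
Expression of the 10 genes in CPM (counts scaled to library size, y axes starting at 0 and differing between panels) at 0, 8, 24 and 48 h (x axes, times evenly spaced). Points are libraries, lines join the group means and bars are the SD of 3 libraries, in red for CTRL cells and in green for C/EBPδ-inducible cells. VEGFA, NRP1 and SEMA3C lie higher and VEGFB and VEGFC lower in C/EBPδ-inducible cells at each time, and APLN is lower at 48 h than at 0 h in both lines.

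To compare the lines, differentially expressed genes (DEGs) were called at an FDR of 0.01 with edgeR's quasi-likelihood test over all genes tested. At 8 h, VEGFA, NRP1 and SEMA3C were higher and VEGFB, VEGFC and ANGPTL4 lower in C/EBPδ-inducible cells. At 48 h, VEGFA, NRP1 and SEMA3C were again higher and VEGFB again lower. At 8 h, 9 of the 10 genes passed the filter on low counts and 6 were DEGs, where 31.8% of all genes tested were. Of these, 3 were higher, against 14.3% of all genes, and 3 lower, against 17.4%. Among the lower, VEGFC passed the filter through the CTRL libraries alone. At 48 h, 8 genes passed and 4 were DEGs, with 38.3% of all genes called. Here 3 were higher, beside 17.6% of all genes, and 1 lower, beside 20.7%. The median log2 difference of the tested members was −0.17 at 8 h and 0.41 at 48 h, while that of all genes tested was 0.00 and 0.01. The lines differed in so many genes that the count of members says little by itself. At 0 h and 24 h, described only, 7 of 9 tested members passed the same cut-off at each time, where 43.9% and 46.9% of all genes did.

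**Figure D2:**
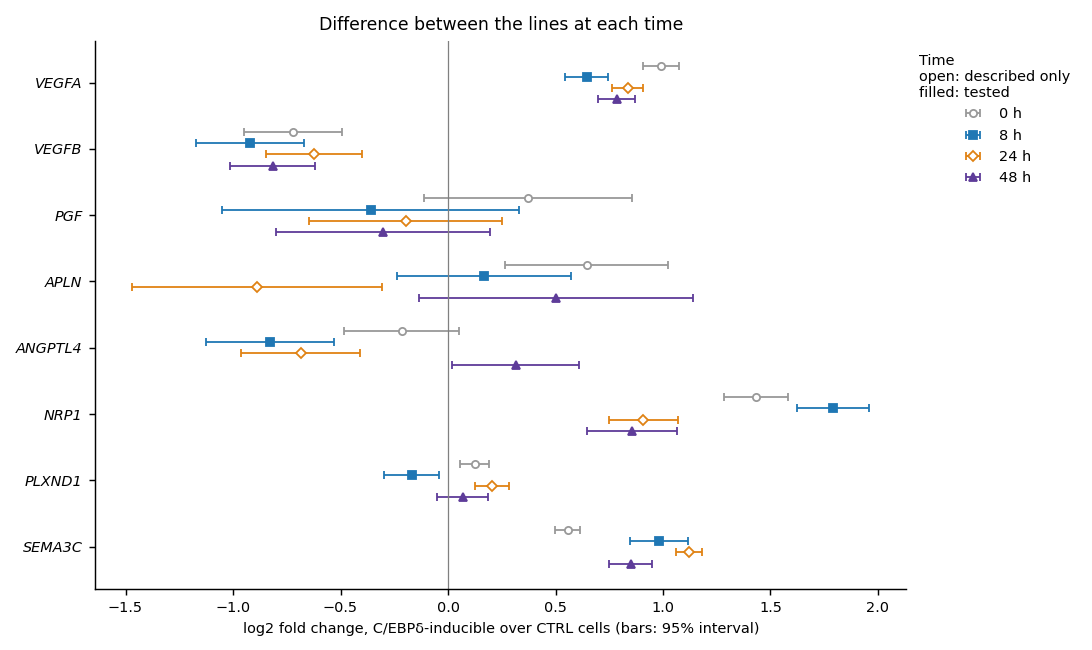
Log2 fold change between C/EBPδ-inducible and CTRL cells (x axis) for the 8 genes with enough counts to be compared (y axis) at 0, 8, 24 and 48 h. Points are estimates from edgeR and bars their 95% intervals, filled where the contrast was tested and open where it is described only. VEGFA, NRP1 and SEMA3C lie right of 0 and VEGFB left of 0 at all 4 times, and APLN lies left of 0 at 24 h alone.

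Over time within a line, VEGFA rose and APLN fell in both lines, and VEGFB and PLXND1 ended higher. Among CTRL cells, VEGFA was the DEG of the 9 members tested at 8 h against 0 h, in a comparison that called 1.70% of all genes. Those 259 genes became 774 without CTRL replicate 1 at 8 h and 92 to 105 without CTRL replicate 2 at 8 h or any CTRL library at 0 h. By 48 h, 5 of 9 members were DEGs, with 30.0% of all genes called. VEGFA, VEGFB, PGF and PLXND1 were higher (15.2% of all genes) and APLN lower (14.7%). In C/EBPδ-inducible cells, 3 of 8 members were DEGs at 8 h (30.5% of all genes) and 6 of 8 at 48 h (38.7% of all genes). At 48 h, VEGFA, VEGFB, PLXND1 and SEMA3C were higher, next to 19.1% of all genes, and APLN and NRP1 lower, next to 19.5%. From 0 h to 24 h, described only, 2 of 9 members passed in CTRL cells (6.06% of all genes) and 5 of 8 in C/EBPδ-inducible cells (15.5%).

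A comparison of 48 h with 8 h, added after the data had been seen, uses no library that took part in choosing the genes. In CTRL cells, 4 of 9 members were DEGs (17.7% of all genes): VEGFB and PLXND1 rose, and APLN and ANGPTL4 fell. The replicate numbers paired the CTRL libraries in this comparison, and with the replicate number as a block 5 of 9 were DEGs, PGF being added, and 5041 of all genes in place of 2736. Without CTRL replicate 2 at 8 h or CTRL replicate 3 at 48 h, 2 members were DEGs, with 1267 and 1371 of all genes, and without CTRL replicate 2 at 48 h there were 3, with 1680. Among C/EBPδ-inducible cells, 5 of 8 were (32.8% of all genes): VEGFB, PGF and PLXND1 rose, and APLN and NRP1 fell. VEGFA was a DEG in neither line between these times.

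**Figure D3:**
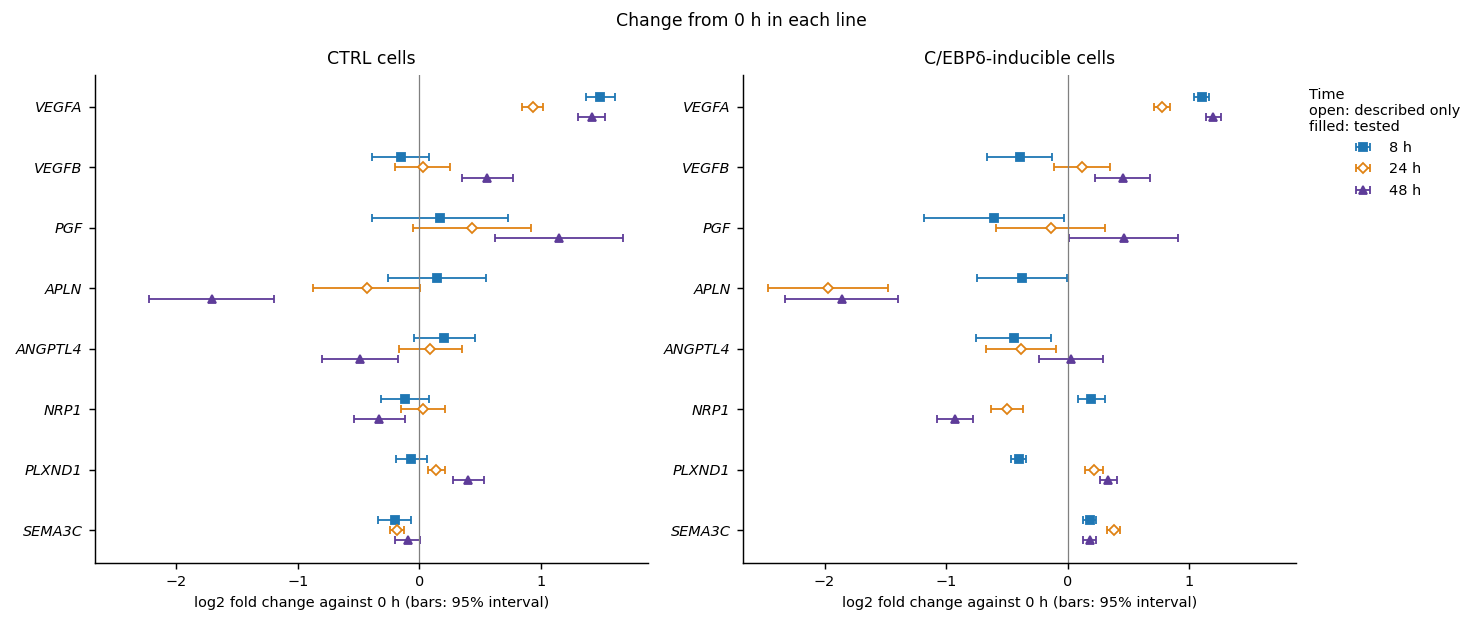
Log2 fold change against 0 h (x axes) in CTRL cells (left) and C/EBPδ-inducible cells (right) for the same genes (y axes) at 8, 24 and 48 h. Points are estimates from edgeR and bars their 95% intervals, filled where tested and open where described only. VEGFA lies right of 0 at each time in both lines, APLN reaches −1.71 and −1.86 at 48 h, and NRP1 falls to −0.92 in C/EBPδ-inducible cells.

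VEGFA (ENSG00000112715, GRCh38 chromosome 6, 43770184 to 43786487, plus strand) is the main signal for new blood vessels among these genes. In CTRL cells its 3 libraries read 49.9, 55.9 and 53.0 CPM at 0 h, 149.6, 148 and 139 at 8 h, 97.7, 106 and 101 at 24 h, and 146, 139.5 and 139 at 48 h. Libraries of C/EBPδ-inducible cells read 104, 105 and 107 CPM at 0 h, 232, 227 and 218 at 8 h, 180.2, 179 and 183 at 24 h, and 244, 251 and 241 at 48 h. Both lines thus went up by 8 h, stood lower at 24 h and were up again at 48 h, and the lines did not overlap at any time. The 0 h libraries of C/EBPδ-inducible cells overlapped the 24 h libraries of CTRL cells, and the 8 h and 48 h levels of CTRL cells overlapped each other, while the other groups were separate from their neighbors in the order of levels.

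VEGFA was 1.56-fold higher in C/EBPδ-inducible than in CTRL cells at 8 h (log2 0.65, standard error 0.052, edgeR adjusted p = 1.50e-06) and 1.72-fold higher at 48 h (log2 0.79, standard error 0.043, edgeR adjusted p = 4.60e-09). At 0 h it was already 1.99-fold higher, and at 24 h 1.78-fold. CTRL cells, which lack the CEBPD cDNA, showed the rise as well: 2.80-fold from 0 h to 8 h (log2 1.49, standard error 0.061, edgeR adjusted p = 5.56e-07) and 2.67-fold to 48 h (log2 1.42, standard error 0.057, edgeR adjusted p = 1.34e-08). In C/EBPδ-inducible cells the rise was 2.15-fold at 8 h (log2 1.10, standard error 0.031, edgeR adjusted p = 1.42e-16) and reached a log2 of 1.20 at 48 h (standard error 0.032, edgeR adjusted p = 2.30e-20). Between 8 h and 48 h the log2 change was −0.04 in CTRL cells (95% interval −0.16 to 0.07) and 0.10 in C/EBPδ-inducible cells (95% interval 0.04 to 0.17, edgeR adjusted p = 0.0199), neither of them a DEG. The exons of VEGFA overlap ENSG00000272114 on the other strand over 188 bp, and since the strand setting of the counting is not given in the sources used here, reads of both genes cannot be told apart there.

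Whether the response differed between the lines was tested as the change from 0 h in C/EBPδ-inducible cells minus that in CTRL cells. At 8 h, 2 of 9 tested members were DEGs in this contrast, against 1.66% of all genes (269 genes, which became 131 to 1196 on leaving out a library, 1196 without CTRL replicate 3 at 8 h): VEGFA, whose rise was smaller in C/EBPδ-inducible cells by 0.36 in log2 units (standard error 0.066, edgeR adjusted p = 0.00491), and SEMA3C. The smaller fold started from a higher level, and the CTRL libraries at 0 h used here took part in choosing VEGFA. The VEGFA call held on leaving out CTRL replicate 2 at 0 h or CTRL replicates 1 or 3 at 8 h. It was lost on leaving out any of the other 9 libraries, where the adjusted p reached 0.0220 and the difference ran from −0.40 to −0.32 over all 12 omissions. At 48 h the difference was −0.23 (95% interval −0.34 to −0.11, edgeR adjusted p = 0.0186), and it passed the cut-off without CTRL replicate 2 at 0 h (−0.27, adjusted p = 0.00997). At 24 h, where the contrast had drawn attention to APLN and is described only, 3 of 9 members passed, with 5.84% of all genes called.

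The other VEGF ligands did not share the pattern of VEGFA between the lines. VEGFB (ENSG00000173511, chromosome 11, 64234584 to 64239264, plus strand), a ligand of FLT1, read 6.75, 7.60 and 7.70 CPM in CTRL cells and 3.56, 3.82 and 4.22 CPM in C/EBPδ-inducible cells at 8 h. At 48 h the libraries read 12.7, 12.4 and 11.7 CPM in CTRL cells and 6.27, 7.17 and 7.61 CPM in C/EBPδ-inducible cells. The lines did not overlap at either time, with C/EBPδ-inducible cells the lower. The log2 difference was −0.92 at 8 h (standard error 0.128, edgeR adjusted p = 0.000132) and −0.82 at 48 h (standard error 0.102, edgeR adjusted p = 1.59e-05), and the means at 0 h, 5.07 ± 0.200 against 8.32 ± 1.03 CPM (SD, n = 3), lay in the same direction.

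Within the lines VEGFB ended higher at 48 h. At 8 h its mean was below that at 0 h, at 7.35 against 8.32 CPM in CTRL cells. In C/EBPδ-inducible cells it was 3.87 against 5.07 CPM, and VEGFB was a DEG in neither line between these times. It rose from 8 h to 48 h by a log2 of 0.74 in CTRL cells (standard error 0.102, edgeR adjusted p = 0.000596) and of 0.85 in C/EBPδ-inducible cells (standard error 0.130, edgeR adjusted p = 2.80e-05), and all 48 h libraries lay above those at 8 h. Against 0 h the rise at 48 h was 0.56 in CTRL cells (edgeR adjusted p = 0.00109) and 0.45 in C/EBPδ-inducible cells (edgeR adjusted p = 0.00226). These calls against 0 h are narrow. The first was lost without CTRL replicate 3 at 0 h (0.47, adjusted p = 0.0103), the second without replicate 2 at 0 h (0.43, adjusted p = 0.0123) or replicate 3 at 48 h (0.39, adjusted p = 0.0177) of the C/EBPδ-inducible cells.

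VEGFC (ENSG00000150630, chromosome 4, 176683538 to 176792922, minus strand), the lymphatic growth factor, was close to absent from C/EBPδ-inducible cells. CTRL libraries held 17, 15 and 15 counts at 0 h, 11, 19 and 19 at 8 h, 21, 19 and 28 at 24 h, and 19, 8 and 20 at 48 h. C/EBPδ-inducible libraries held 0, 1 and 0 counts at 0 h, 0, 2 and 3 at 8 h, 0, 1 and 2 at 24 h, and 0, 4 and 0 at 48 h. No library of the C/EBPδ-inducible cells reached the lowest CTRL library. Summed over the libraries of a line, 211 counts stood against 13, and corrected for depth the ratio was 16.6 (95% interval 9.49 to 31.7, exact conditional interval, covering counting error only). At 8 h the ratio was 9.21 (95% interval 3.69 to 29.6, same method), and VEGFC was a DEG (edgeR adjusted p = 0.00201), a call lost without CTRL replicate 2 (adjusted p = 0.0112) or replicate 2 of the C/EBPδ-inducible cells (adjusted p = 0.0155). VEGFC passed the filter there through the CTRL libraries alone, so only a lower level could be called, and the call adds nothing to the counts. At 48 h, where it did not pass the filter on low counts, the ratio was 12.1 (95% interval 4.41 to 46.1). Over time in CTRL cells the log2 change was 0.06 at 8 h (95% interval −0.57 to 0.70) and −0.07 at 48 h (95% interval −0.72 to 0.57).

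PGF (ENSG00000119630, chromosome 14, 74941834 to 74955626, minus strand), a further FLT1 ligand, was a low-count gene with 12 to 76 counts per library. In CTRL cells it read 1.01, 1.44 and 1.30 CPM at 0 h, 1.86, 1.21 and 1.01 at 8 h and 3.77, 2.17 and 2.31 at 48 h. The C/EBPδ-inducible libraries read 1.92, 1.46 and 1.51 CPM at 0 h, 1.15, 0.619 and 1.54 at 8 h and 1.58, 2.37 and 2.85 at 48 h. The libraries of both lines overlapped at 8 h and 48 h, and the log2 difference between the lines was −0.36 at 8 h (95% interval −1.05 to 0.33) and −0.30 at 48 h (95% interval −0.80 to 0.20). PGF rose from 0 h to 48 h in CTRL cells by a log2 of 1.15 (standard error 0.269, edgeR adjusted p = 0.00416), with the 48 h libraries above all earlier ones. That rise was 0.84 (adjusted p = 0.0161) without CTRL replicate 1 at 48 h, and the call was also lost without CTRL replicates 1, 2 or 3 at 0 h (adjusted p = 0.0237, 0.0114 and 0.0177). From 8 h to 48 h it rose by 1.08 in C/EBPδ-inducible cells (standard error 0.300, edgeR adjusted p = 0.00675), lost without replicate 1 (adjusted p = 0.0161) or 2 (0.76, adjusted p = 0.0515) at 8 h or replicate 2 (adjusted p = 0.0269) or 3 (adjusted p = 0.0415) at 48 h. In CTRL cells the change over the same interval was 1.01 (edgeR adjusted p = 0.0291), and with the replicate number as a block, since the numbers paired the libraries in this contrast, 1.02 (edgeR adjusted p = 0.000387).

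APLN (ENSG00000171388, chromosome X, 129645259 to 129654956, minus strand), the precursor of apelin, ended lower at 48 h than at 0 h in both lines, where VEGFA ended higher. In CTRL cells its libraries read 1.79, 2.22 and 1.83 CPM at 0 h, 2.50, 1.75 and 2.02 at 8 h, 1.17, 1.48 and 1.66 at 24 h, and 0.496, 0.704 and 0.578 at 48 h. The C/EBPδ-inducible libraries read 2.72, 3.60 and 2.75 CPM at 0 h, 2.25, 2.17 and 2.69 at 8 h, 1.10, 0.713 and 0.535 at 24 h, and 0.678, 1.10 and 0.697 at 48 h. CTRL cells were at their 0 h level at 8 h and far below it at 48 h, and C/EBPδ-inducible cells had come down by 24 h. At 24 h the C/EBPδ-inducible libraries lay below all CTRL libraries, whereas at 0 h they lay above them. All these levels rest on 10 to 79 counts per library.

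From 8 h to 48 h, in libraries that took no part in choosing the gene, APLN fell 3.55-fold in CTRL cells (log2 −1.83, standard error 0.265, edgeR adjusted p = 0.000793) and 2.80-fold in C/EBPδ-inducible cells (log2 −1.49, standard error 0.259, edgeR adjusted p = 0.000120). Against 0 h, APLN at 48 h was 3.27-fold lower in CTRL cells (log2 −1.71, standard error 0.263, edgeR adjusted p = 0.000229) and 3.63-fold lower in C/EBPδ-inducible cells (log2 −1.86, standard error 0.238, edgeR adjusted p = 3.60e-07). The difference between the lines in this fall was −0.16 (95% interval −0.91 to 0.59). APLN was not a DEG between the lines at 8 h (log2 0.17, 95% interval −0.24 to 0.57) or at 48 h (log2 0.50, 95% interval −0.14 to 1.14). Differences within these intervals were not detectable at this depth. At 24 h the change from 0 h was −0.44 in CTRL cells and −1.97 in C/EBPδ-inducible cells, the values that chose the gene.

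NRP1 (ENSG00000099250, chromosome 10, 33177492 to 33336262, minus strand), a co-receptor of VEGFA and of SEMA3C, was higher in C/EBPδ-inducible cells at each time. In CTRL cells it read 9.13, 9.96 and 8.55 CPM at 0 h, 8.37, 8.02 and 8.55 at 8 h, 9.12, 9.19 and 10.02 at 24 h, and 7.59, 6.75 and 7.57 at 48 h. The C/EBPδ-inducible libraries read 24.5, 25.6 and 24.6 CPM at 0 h, 27.6, 28.5 and 29.6 at 8 h, 17.7, 16.5 and 18.8 at 24 h, and 13.4, 12.2 and 14.6 at 48 h. CTRL cells kept close to 1 level, and C/EBPδ-inducible cells stayed above them throughout while coming down from 8 h on. NRP1 was 3.46-fold higher in C/EBPδ-inducible cells at 8 h (log2 1.79, standard error 0.086, edgeR adjusted p = 2.03e-08) and 1.81-fold higher at 48 h (log2 0.86, standard error 0.107, edgeR adjusted p = 1.67e-05), and at 0 h it was 2.70-fold higher.

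In C/EBPδ-inducible cells NRP1 fell from 8 h to 48 h by 1.11 in log2 units (standard error 0.078, edgeR adjusted p = 1.53e-09) and from 0 h to 48 h by 0.92 (standard error 0.075, edgeR adjusted p = 1.24e-10). In CTRL cells the log2 changes were −0.18 (95% interval −0.39 to 0.02) and −0.33 (95% interval −0.54 to −0.12, edgeR adjusted p = 0.0263). At 48 h, 2 of 9 members differed between the lines in their change from 0 h, with 5.54% of all genes called. NRP1 was the lower (2.72% of all genes) at −0.60 (standard error 0.129, edgeR adjusted p = 0.00458), and SEMA3C the higher (2.83%). The NRP1 call held without CTRL replicate 2 at 0 h, CTRL replicates 1 or 2 at 48 h or C/EBPδ-inducible replicate 3 at 48 h, and was lost without any of the other 8 libraries, with adjusted p up to 0.0205 and a difference of −0.67 to −0.52 over all 12 omissions. Over 561 bp its exons overlap ENSG00000238258 on the other strand.

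NRP2 (ENSG00000118257, chromosome 2, 205681990 to 205798133, plus strand), the neuropilin best known from lymphatic vessels, had 0 to 15 counts per library and never passed the filter. Over all times CTRL cells held 57 counts and C/EBPδ-inducible cells 81, a depth-corrected ratio of 1.39 (95% interval 0.979 to 1.99, exact conditional interval, counting error only). A difference between the lines was not detectable at this depth.

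PLXND1 (ENSG00000004399, chromosome 3, 129555214 to 129606676, minus strand), the plexin of the group, was a DEG between times but not between the lines at 8 h or 48 h. It read 95.3, 98.9 and 94.0 CPM at 0 h, 96.9, 89.2 and 83.6 at 8 h, 101, 109 and 109.8 at 24 h, and 138, 117 and 125 at 48 h in CTRL cells. Libraries of C/EBPδ-inducible cells read 106, 105 and 104 CPM at 0 h, 78.9, 77.4 and 81.5 at 8 h, 127, 116 and 125 at 24 h, and 136, 139 and 128 at 48 h. The C/EBPδ-inducible libraries thus dipped below their 0 h level at 8 h and stood above it later. That dip was −0.40 in log2 units (standard error 0.033, edgeR adjusted p = 3.06e-09), against −0.07 in CTRL cells (95% interval −0.20 to 0.06). The difference between these changes, −0.31, had an edgeR adjusted p of 0.0242, and without CTRL replicate 3 at 8 h it was −0.36 (adjusted p = 0.00170).

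By 48 h PLXND1 had risen against 0 h by a log2 of 0.40 in CTRL cells (standard error 0.063, edgeR adjusted p = 0.000270) and 0.33 in C/EBPδ-inducible cells (standard error 0.036, edgeR adjusted p = 2.04e-08). From 8 h to 48 h it rose by 0.50 (standard error 0.082, edgeR adjusted p = 0.00164) and 0.75 (standard error 0.038, edgeR adjusted p = 2.16e-11), the former call being lost without CTRL replicate 2 at 8 h (adjusted p = 0.0140) or replicate 3 at 48 h (adjusted p = 0.0115). Between the lines the log2 difference was −0.17 at 8 h (95% interval −0.30 to −0.04, edgeR adjusted p = 0.0559) and 0.07 at 48 h (95% interval −0.05 to 0.19). Without CTRL replicate 3 at 8 h the former was −0.22 with an adjusted p of 0.00629.

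SEMA3C (ENSG00000075223, chromosome 7, 80742538 to 80922359, minus strand), a secreted ligand of neuropilin and plexin complexes, was the most abundant of these transcripts. In CTRL cells it read 309, 302 and 289 CPM at 0 h, 234, 249 and 285 at 8 h, 269, 266 and 263 at 24 h, and 260, 301 and 280.3 at 48 h. Libraries of C/EBPδ-inducible cells read 430.4, 446 and 450.3 CPM at 0 h, 497, 512 and 489 at 8 h, 552, 584 and 592 at 24 h, and 513, 505 and 508 at 48 h. The lines were apart at each time, with C/EBPδ-inducible cells the higher and their highest level at 24 h. SEMA3C was 1.97-fold higher in C/EBPδ-inducible cells at 8 h (log2 0.98, standard error 0.069, edgeR adjusted p = 4.79e-07) and 1.80-fold higher at 48 h (log2 0.85, standard error 0.051, edgeR adjusted p = 1.14e-08), compared with 1.47-fold at 0 h and 2.18-fold at 24 h.

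Against 0 h, SEMA3C rose in C/EBPδ-inducible cells by a log2 of 0.18 at 8 h (standard error 0.027, edgeR adjusted p = 1.27e-05) and of 0.18 at 48 h (standard error 0.028, edgeR adjusted p = 5.31e-06). In CTRL cells the changes were −0.20 at 8 h (95% interval −0.34 to −0.07, edgeR adjusted p = 0.139) and −0.10 at 48 h (95% interval −0.20 to 0.00). Without CTRL replicate 3 at 8 h the first was −0.29 with an adjusted p of 0.00635, a call not made with all libraries. The change from 0 h was higher in C/EBPδ-inducible cells by 0.41 at 8 h (standard error 0.078, edgeR adjusted p = 0.00597) and by 0.27 at 48 h (standard error 0.061, edgeR adjusted p = 0.00675). The 8 h call held without CTRL replicates 1 or 3 at 8 h and was lost without any of the other 10 libraries (0.35 to 0.50 over all omissions, adjusted p up to 0.0263). The 48 h call held without CTRL replicate 3 at 0 h or CTRL replicates 1 or 2 at 48 h and was lost without any of the other 9 (0.22 to 0.32 over all omissions, adjusted p up to 0.0281), and with the model of all 24 libraries its adjusted p was 0.0119. Between 8 h and 48 h the log2 change of SEMA3C in C/EBPδ-inducible cells was 0.01 (95% interval −0.05 to 0.07).

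ANGPTL4 (ENSG00000167772, chromosome 19, 8363289 to 8374370, plus strand), which acts on lipoprotein lipase and on vessel permeability, read 6.66, 5.91 and 6.35 CPM in CTRL cells and 3.98, 3.71 and 2.69 CPM in C/EBPδ-inducible cells at 8 h, without overlap. At 48 h the libraries read 4.77, 3.46 and 3.63 CPM in CTRL cells and 5.20, 5.23 and 4.47 CPM in C/EBPδ-inducible cells and overlapped. It was thus lower in C/EBPδ-inducible cells at 8 h (log2 −0.83, standard error 0.151, edgeR adjusted p = 0.000943) and not called at 48 h (log2 0.31, 95% interval 0.02 to 0.61, edgeR adjusted p = 0.104). At 24 h, described only, it was again lower, at 3.09 to 4.01 CPM against 5.13 to 6.89 CPM in CTRL cells. The lines overlapped at 0 h, at 4.05 to 5.27 CPM against 5.06 to 6.39 CPM in CTRL cells. In CTRL cells ANGPTL4 fell from 8 h to 48 h by 0.67 in log2 units (standard error 0.151, edgeR adjusted p = 0.00819). With the replicate number as a block the adjusted p was 0.000391, whereas the call was lost on leaving out any library but CTRL replicate 1 at 48 h, with adjusted p up to 0.0354 and a change of −0.85 to −0.58. In C/EBPδ-inducible cells the change was 0.48 (95% interval 0.18 to 0.77, edgeR adjusted p = 0.0149). Against 0 h the changes at 48 h were −0.49 in CTRL cells (edgeR adjusted p = 0.0253) and 0.03 in C/EBPδ-inducible cells (95% interval −0.24 to 0.29). The former was −0.66 without CTRL replicate 1 at 48 h, with an adjusted p of 0.00378.

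The bases before the transcription start are shown for SEMA3C, which stood higher in C/EBPδ-inducible cells, for APLN, which fell in both lines, and for ANGPTL4, a known HIF target. RefSeq promoter windows (GRCh38.p14) were found for 8 of the 10 genes, in 10 windows, and VEGFA and NRP1 have no entry. The 250 bases before each start were searched on both strands for the core of the hypoxia response element (ACGTG) and a loose C/EBP pattern (TTNNGNAA). The composite C/EBP-ATF element (TGATGNAA) and the GC box (GGGCGG) were searched in the same way. The C/EBP letters were in none of the 10 windows and in 33.2% of all 35116 promoters. The C/EBP-ATF letters were in 1 window, that of SEMA3C 19 bases before the start, and in 3.14% of all promoters. SEMA3C has a further annotated start, whose window lacks these letters and overlaps a UTR and is therefore not printed. The hypoxia core was in 1 window, that of ANGPTL4 on the other strand 234 bases before the start, and in 18.5% of all promoters. This RefSeq start lies inside the ANGPTL4 gene span given above (from 8363289), so the window is not upstream of the whole gene. The GC box was in 9 windows and in 42.6% of all promoters. The first 3 of these patterns were put in capitals, and no capital stands in APLN. A match describes letters, not a bound site. The sequences run 5′ to 3′ on the strand of the gene, at chr7:80922390-80922639 (minus strand) for SEMA3C, chrX:129654957-129655206 (minus strand) for APLN and chr19:8363905-8364154 (plus strand) for ANGPTL4.
SEMA3C: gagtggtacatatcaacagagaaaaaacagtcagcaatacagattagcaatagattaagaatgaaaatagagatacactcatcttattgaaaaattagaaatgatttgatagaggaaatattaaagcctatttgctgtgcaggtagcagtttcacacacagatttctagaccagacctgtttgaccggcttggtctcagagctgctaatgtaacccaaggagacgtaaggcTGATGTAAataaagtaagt
APLN: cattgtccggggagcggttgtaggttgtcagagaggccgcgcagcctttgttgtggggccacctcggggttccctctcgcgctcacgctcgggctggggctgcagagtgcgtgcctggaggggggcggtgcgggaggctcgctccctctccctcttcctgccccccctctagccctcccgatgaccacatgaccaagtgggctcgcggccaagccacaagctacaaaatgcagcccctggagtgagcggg
ANGPTL4: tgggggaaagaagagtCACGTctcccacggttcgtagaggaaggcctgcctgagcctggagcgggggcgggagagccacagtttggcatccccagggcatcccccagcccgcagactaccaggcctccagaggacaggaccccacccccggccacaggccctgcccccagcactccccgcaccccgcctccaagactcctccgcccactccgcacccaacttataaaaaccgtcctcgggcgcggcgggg

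The endothelial receptors KDR, FLT4 and APLNR were nearly absent, whereas the co-receptor NRP1 and the plexin PLXND1 were expressed. Of 6 further VEGF and apelin ligands and receptors, KDR had 0 or 1 count per library, FLT4 0 to 5, VEGFD 0 to 3 and APLNR 0 to 2, and APELA, which encodes the other ligand of APLNR, had none. A count of 0 in the shallowest library allows up to 3 counts. FLT1, with 3 to 25 counts, was the only one to pass the filter, and it rose from 0 h to 48 h in C/EBPδ-inducible cells (log2 1.67, edgeR adjusted p = 0.000725) and read 0.93 in CTRL cells (edgeR adjusted p = 0.0384). From 0 h to 8 h it also rose in C/EBPδ-inducible cells (log2 1.39, edgeR adjusted p = 0.00709), and at 24 h against 0 h it did not pass there. FLT1 did not pass between the lines at 0 h. Its entry into these comparisons thus rested on the 8 h or 48 h libraries, and only a rise could be called.

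Other genes of the semaphorin and plexin family showed large differences in both directions. Of 27 genes, 18 were tested at 48 h, and C/EBPδ-inducible cells had 3 above and 7 below CTRL cells, beside 17.6% and 20.7% of all genes, with a median log2 difference of −0.25 beside 0.01 for all genes. The plexin A receptors PLXNA2 (log2 3.46, edgeR adjusted p = 1.19e-08) and PLXNA1 (log2 1.86, edgeR adjusted p = 2.62e-11) were higher. The semaphorins SEMA3D (log2 −3.21) and SEMA6B (log2 −3.08) were lower (edgeR adjusted p = 4.48e-10 and 1.16e-12), as was the repulsive guidance cue SEMA3A, at 103 ± 6.09 against 451 ± 47.6 CPM (SD, n = 3). Among the class 3 semaphorins besides SEMA3C, SEMA3F was higher (log2 0.72, edgeR adjusted p = 0.00191) and SEMA3A, SEMA3D and SEMA3G were lower. Over time, 7 of 18 rose and 1 fell in CTRL cells from 0 h to 48 h (15.2% and 14.7% of all genes), and 9 rose and 2 fell in C/EBPδ-inducible cells (19.1% and 19.5%), with medians of 0.43 and 0.28 beside 0.01 and 0.00 for all genes.

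Among 22 other angiogenic factors, 14 were tested at 48 h, with 7 above and 3 below the CTRL level in C/EBPδ-inducible cells, where 17.6% and 20.7% of all genes were. Higher were the Notch ligand JAG1 (log2 2.50), the growth factor FGF2 (log2 2.46), the matricellular protein CCN1 (log2 2.19) and the chemokine CXCL8 (log2 2.08), with edgeR adjusted p = 3.39e-14, 1.28e-11, 8.72e-13 and 2.28e-11. Lower were FGF1, EFNA1 and PDGFA. The median log2 difference of the list was 0.54 beside 0.01 for all genes. From 0 h to 48 h, 2 rose and 5 fell in CTRL cells (15.2% and 14.7% of all genes) and 3 rose and 4 fell in C/EBPδ-inducible cells (19.1% and 19.5%), and FGF1 fell most in both (log2 −2.04 and −3.04, edgeR adjusted p = 5.43e-05 and 9.98e-09). The change differed between the lines for 4 of 14, all higher in C/EBPδ-inducible cells (2.83% of all genes), led by the vasoactive peptide gene ADM (log2 1.13, edgeR adjusted p = 9.51e-05).

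Genes listed as angiogenesis inhibitors mostly stood higher at 48 h than at 0 h in both lines. Of 12 genes, 4 were tested in CTRL cells and 5 in C/EBPδ-inducible cells at 48 h against 0 h, and 4 rose and none fell in each, beside 15.2% and 19.1% of all genes that rose. The earlier times differed: SERPINF1 was lower at 8 h than at 0 h in both lines (log2 −0.68 and −0.95, edgeR adjusted p = 0.00355 and 0.000788), COL18A1, the source of endostatin, was lower at 8 h in C/EBPδ-inducible cells (log2 −0.51, edgeR adjusted p = 1.29e-08), and at 24 h it read −0.29 in CTRL cells and −0.49 in C/EBPδ-inducible cells. SERPINF1, which encodes the pigment epithelium-derived factor, rose by 48 h by a log2 of 0.99 and 1.34 (edgeR adjusted p = 9.14e-06 and 3.31e-10). The vasohibin VASH2 rose by 1.01 and 0.76 (edgeR adjusted p = 0.000975 and 2.03e-05). VASH2 is counted in this list although it is known to promote angiogenesis, so its rise is not that of an inhibitor. The matrix glycoprotein THBS1, tested in C/EBPδ-inducible cells alone, rose by 3.64 (edgeR adjusted p = 1.88e-06). Its pass of the filter rested on the 48 h libraries, where it was high, so only a rise could be called. THBS1 is among the 4 that rose in these cells. The medians were 0.75 and 0.76. Between the lines at 48 h, VASH2 was higher and SERPINF1 lower (log2 0.61 and −1.44).

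Because VEGFA and ANGPTL4 are HIF targets, the other genes of that response were counted. Of 25 HIF target genes, 22 were tested, and C/EBPδ-inducible cells had 11 above and 1 below CTRL cells at 48 h, beside 17.6% and 20.7% of all genes, with a median log2 difference of 0.36 beside 0.01 for all genes. The largest differences were those of DDIT4, an inhibitor of mTOR signaling (log2 1.44), the repressor MXI1 (log2 1.37) and the carbonic anhydrase CA12 (log2 1.07), with edgeR adjusted p = 1.77e-11, 7.12e-09 and 6.04e-05, and the demethylase KDM4B was the lower. From 0 h to 48 h, 6 rose and 6 fell in CTRL cells (15.2% and 14.7% of all genes, list median 0.00) and 11 rose and 3 fell in C/EBPδ-inducible cells (19.1% and 19.5% of all genes, list median 0.27). The glycolytic genes HK2 and ENO1 fell in both lines and DDIT4 rose in both, by 2.08 and 2.22. The change differed between the lines for 9 of 22 at 48 h, higher in C/EBPδ-inducible cells in all 9 (2.83% of all genes), and at 8 h for 1, which was lower (1.66% of all genes either way). Largest at 48 h were PFKFB4 (log2 0.74, edgeR adjusted p = 0.00449) and BNIP3L (log2 0.61, edgeR adjusted p = 0.00727). Of 10 genes of the oxygen sensing machinery, 7 were tested. In C/EBPδ-inducible cells at 48 h, 4 were higher and none lower (17.6% and 20.7% of all genes). They were EPAS1 (log2 0.97), HIF1A (log2 0.66), ARNT (log2 0.47) and EGLN1 (log2 0.47). EPAS1 and HIF1A encode α subunits of HIF. HIF1A was also the only one whose change from 0 h to 48 h differed between the lines (log2 0.56, edgeR adjusted p = 8.05e-07), where 5.54% of all genes were called.

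**Figure D4:**
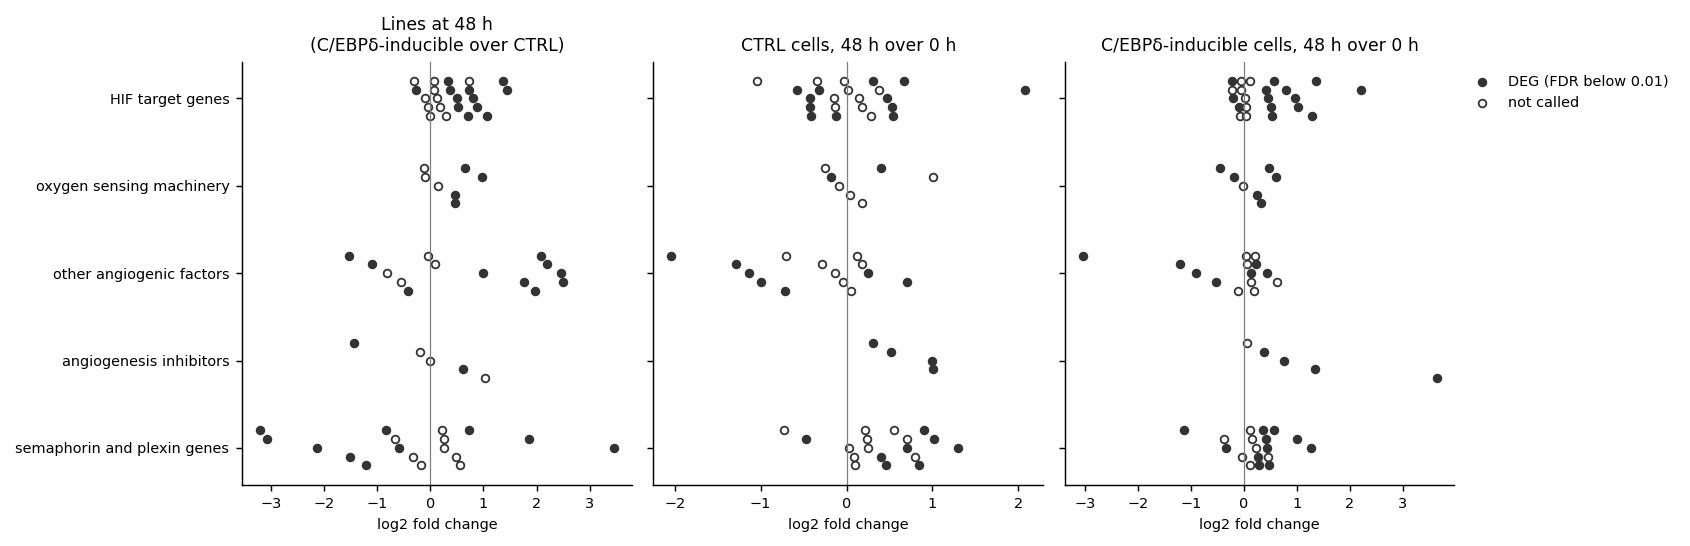
Log2 fold change (x axes) at 48 h of the genes of 5 lists (y axis), between the lines (left) and against 0 h in CTRL cells (middle) and in C/EBPδ-inducible cells (right). Each point is a gene, filled where it was a DEG at an FDR of 0.01 in edgeR and open otherwise, and the vertical offset within a list only separates points. Of the 22 HIF target genes, 11 are DEGs to the right of 0 between the lines. Of the genes listed as angiogenesis inhibitors, 4 are DEGs to the right of 0 in each line at 48 h against 0 h.

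The genes whose log2 CPM was most like that of VEGFA over the 24 libraries, among 13713 genes with a mean of at least 1 CPM, were TUBE1 (Pearson r 0.98), DDIT4 (0.97) and AARS1 (0.96). Within CTRL cells their r was 0.98 each, and within C/EBPδ-inducible cells it was 0.95, 0.92 and 0.99. For APLN they were CCDC9B (0.92), TRIO (0.91) and DNMBP (0.90), with 0.88, 0.95 and 0.97 within CTRL cells and 0.94, 0.91 and 0.94 within C/EBPδ-inducible cells. These coefficients describe 24 libraries that share lines, times and depth, and carry no test.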

How the data were processed

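RNA from 24 MIA PaCa-2 libraries (2 lines, 4 times, 3 per group) was sequenced after removal of ribosomal RNA. Per the labels and the study's methods, the authors trimmed reads with Trimmomatic, used HISAT2 for alignment to GRCh38 and HTSeq for counting per Ensembl gene. The deposited values are raw counts. The strand setting of the counting is not given in the sources used here. Of 60675 identifiers, 56558 matched a GENCODE symbol.

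Counts were scaled by TMM over all 24 libraries to CPM, or to RPKM by the canonical transcript length. Each comparison was fitted to its own libraries with edgeR 4.0.16 (R 4.3.3) after filterByExpr, by glmQLFit and glmQLFTest with Benjamini-Hochberg adjustment over all genes tested, and DEGs were called at an FDR of 0.01. The script was tested on simulated data. Intervals of count ratios cover counting error only. Totals of 12731237 to 22598595 counts limit the precision of genes with few counts.

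The genes, the lists and the comparisons were chosen with earlier results of these data known. Named were the 10 genes, CEBPD, from each list the 2 to 4 called genes with the largest absolute log2 fold change, and the 3 genes most like VEGFA and APLN. FLT1, CDH1, COL18A1, SEMA3F, SEMA3G, PDGFA, KDM4B, HK2 and ENO1 were named after their values were seen. Alternatives were DESeq2 1.42.0, no filter on low counts, total count scaling, the replicate number as a block, a model of all 24 libraries, and leaving out each library. The comparison of 48 h with 8 h was added after seeing the data. Same-numbered libraries deviated together, with correlations over 0.1 in all 3 pairs, in CTRL cells at 24 h against 0 h (0.140 to 0.191) and at 48 h against 8 h (0.140 to 0.510) and in no other comparison. No exact permutation test was used, since 3 against 3 cannot go below a p of 0.1.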

Additional observations from a re-analysis of the deposited data

Results flagged for a closer look

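In 4 cases the change from 0 h of a gene differed between the lines by a test of the difference itself, the interaction of line and time in edgeR's quasi-likelihood test, given as C/EBPδ-inducible minus CTRL cells. For VEGFA at 8 h the difference was −0.36 on the log2 scale (adjusted p = 0.00491), from a rise of 1.49 in CTRL cells and 1.10 in C/EBPδ-inducible cells. The CTRL libraries at 0 h, which this contrast uses, took part in choosing VEGFA, so its p-value is not independent of that choice. SEMA3C differed by 0.41 at 8 h (adjusted p = 0.00597) and by 0.27 at 48 h (adjusted p = 0.00675). For NRP1 at 48 h the difference was −0.60 (adjusted p = 0.00458), with changes of −0.33 in CTRL cells and −0.92 in C/EBPδ-inducible cells. Leaving out single libraries removed these calls in 9, 10, 9 and 8 of 12 omissions for VEGFA at 8 h, SEMA3C at 8 h, SEMA3C at 48 h and NRP1 at 48 h.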

How the results depend on the processing

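Of 1580 log2 fold changes of the 10 genes recomputed under the alternatives, 1470 kept their direction and their side of the FDR cut-off, 87 lost a call, 23 gained one and none reversed. Without the omissions of libraries, 608 of 638 kept both. The count of genes called in CTRL cells at 8 h against 0 h was 2 in place of 1 with no filter on low counts and with the model of all 24 libraries, SEMA3C being added. With that model it was 1 in place of 2 in CTRL cells at 24 h against 0 h, and 1 in place of 2 for the difference in response at 48 h, SEMA3C being lost. The replicate block took the count for the difference in response at 8 h from 2 to 0 (VEGFA adjusted p = 0.0128, SEMA3C adjusted p = 0.0116). It moved no other count of calls by over 1.5 times. Under the block PGF in CTRL cells at 48 h against 0 h had an adjusted p of 0.0106. With DESeq2 the adjusted p of VEGFB in C/EBPδ-inducible cells at 48 h against 0 h was 0.0184, and that of PGF at 48 h against 8 h was 0.0128. The causes were not tested. Leaving out each library gave 5 to 7 genes called between the lines at 0 h, 5 to 7 at 8 h, 7 to 8 at 24 h and 4 to 5 at 48 h. The number of all genes called moved as well, between 5951 and 6621 at 0 h, 3406 and 5816 at 8 h, 6490 and 7130 at 24 h, and 4713 and 6509 at 48 h. For the difference in response at 8 h it ran from 131 to 1196. The ranges of the members are therefore not a trait of these genes alone. In CTRL cells it gave 1 to 2 at 8 h, 2 to 2 at 24 h, 3 to 5 at 48 h and 2 to 4 for 48 h against 8 h. In C/EBPδ-inducible cells it gave 3 to 3, 5 to 5, 5 to 6 and 4 to 5 for the same comparisons, and for the difference in response 0 to 3 at 8 h, 1 to 3 at 24 h and 0 to 2 at 48 h. Counts of 0 to 79 per library limit what APLN, PGF, VEGFC and NRP2 can show.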

Other observations

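Genes of the lipoprotein lipase axis, on which ANGPTL4 acts, were measured as well. Of 18 such genes, 8 were tested between the lines at 48 h, with 2 above and 3 below the CTRL level in C/EBPδ-inducible cells, beside 17.6% and 20.7% of all genes. The fatty acid importer of mitochondria CPT1A (log2 −1.51, edgeR adjusted p = 7.89e-10) and the lipid-sensing receptor PPARA (log2 −0.86, edgeR adjusted p = 1.32e-07) were lower, and the lipid droplet protein PLIN2 was higher (log2 0.57, edgeR adjusted p = 7.17e-06). CPT1A was the gene of this list whose change from 0 h to 48 h differed between the lines (log2 −0.77, edgeR adjusted p = 1.95e-05).

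Of 11 endothelial marker genes, PECAM1, VWF, TEK, TIE1, ERG and CLDN5 had 0 to 6 counts in every library and CDH5 0 to 44, whereas ROBO4 had 206 to 1282, EMCN 145 to 535, ESAM 13 to 47 and ENG 3 to 717. Their summed level was 84.8 to 108 CPM in CTRL libraries and 26.0 to 50.5 CPM in C/EBPδ-inducible libraries. The sum rests mostly on ROBO4, EMCN and ENG, each lower in C/EBPδ-inducible cells at 48 h (log2 −1.33, −0.63 and −5.59, edgeR adjusted p = 8.82e-08, 0.000138 and 3.24e-12), while CDH5 was higher (log2 3.83, edgeR adjusted p = 5.14e-07). With at most 0.417 CPM in CTRL libraries, CDH5 passed the filter through the C/EBPδ-inducible libraries alone, so only a higher level could be called.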
